A study of Mus musculus with 6 samples.

Results

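Retinoic acid, the active form of vitamin A, tells spermatogonia to leave the stem cell state, and 9 genes that make it, carry it, sense it, clear it or respond to it were followed in mouse spermatogonial stem cells cultured as 3 kinds. The genes were Aldh1a1 and Dhrs3 (synthesis and its reverse step), Crabp1 and Crabp2 (carriers), Rara, Rarb and Rarg (receptors), Cyp26b1 (clearance) and Stra8 (response). They were taken by name, all 9 were measured, and they stand among 18194 genes of the array. The cells came from testes of male ICR mice aged 3 to 5 days and grew on mitomycin-treated embryonic fibroblasts, which stay in the dish as feeders. SSC are the unipotent germ-line stem cells, iSSC an intermediate state and mSSC a multipotent state, each picked by colony shape. No genetic change or drug treatment is named for any kind. All 3 kinds derive from clumps of early (0 to 1) or middle (9 to 10) passages, and flattened or embryonic stem cell-like colonies either stayed in germ stem cell medium or moved to a medium for embryonic stem cells. The sources used here leave unstated which array had which passage or medium.

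Each kind was hybridised on 2 Affymetrix arrays, so every mean has n = 2, and precision is limited by how few arrays there are. Nothing in the labels states that the 2 arrays of a kind came from different cultures or animals, and p-values then measure only the spread between these RNA samples, which may be technical. Values are log2 signals per probe set, so a step of 1 is a doubling, and differences are between group means ± SE from a limma fit over all genes. A gene was called when its p, after Benjamini-Hochberg adjustment over all genes, was under 0.05. Lower quartiles of the 6 arrays ran from 4.23 to 4.38, and a value under its own array's quartile is termed near background. All 10 pluripotency markers, Nanog among them, rose in mSSC against SSC, and of 9 markers of undifferentiated spermatogonia 7, Zbtb16 among them, fell and 2, Sall4 and Etv5, rose. Both SSC arrays also held strong signal of other cells. The median level of 12 macrophage markers was 11.85 and 11.01 in SSC, 9.13 and 8.64 in iSSC, and 5.06 and 4.87 in mSSC, and that of 11 fibroblast markers was 12.97 and 12.01, 9.84 and 10.31, and 8.02 and 9.78.

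Retinol is oxidised to retinaldehyde by Rdh10 and other dehydrogenases, and Dhrs3 turns retinaldehyde back into retinol. Aldh1a1, Aldh1a2 and Aldh1a3 oxidise retinaldehyde to retinoic acid, which Crabp1 and Crabp2 bind in the cytoplasm and Cyp26 enzymes degrade. Retinoic acid binds the receptors Rara, Rarb and Rarg, which sit with retinoid X receptors on paired copies of a short DNA sequence and switch on targets such as Rarb itself, Cyp26a1, Stra8 and Hox genes. In the testis Sertoli cells supply much of the first retinoic acid, and spermatogonia answer with Stra8 and Kit.

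Promoter sequences are shown for the responders Rarb, Cyp26a1 and Stra8, whose signals differed between arrays in a like way, and for Aldh1a1, which of the 9 genes differed most between kinds. Each is the 250 bases before a listed start, 5′ to 3′ on the gene's strand, from RefSeq on GRCm38.p6. Capitals mark the short sequence that a receptor contacts, termed a receptor hexamer here. It was searched on both strands as AGGTCA, with AGTTCA as a first variant, GGGTCA as another and GGTTCA as the last. On the opposite strand AGTTCA appears as TGAACT, whereas GGGTCA appears as TGACCC. The windows are chr14:16575477-16575726 (minus strand) for Rarb, chr19:37697558-37697807 (plus) for Cyp26a1, chr6:34920698-34920947 (plus) for Stra8 and chr19:20601718-20601967 (plus), the second of 2 listed starts, for Aldh1a1.
Rarb: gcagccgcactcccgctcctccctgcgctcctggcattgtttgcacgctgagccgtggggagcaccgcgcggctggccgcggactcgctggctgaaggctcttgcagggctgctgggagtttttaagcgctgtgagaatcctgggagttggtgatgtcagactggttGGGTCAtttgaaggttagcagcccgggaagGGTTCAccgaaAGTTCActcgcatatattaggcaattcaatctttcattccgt
Cyp26a1: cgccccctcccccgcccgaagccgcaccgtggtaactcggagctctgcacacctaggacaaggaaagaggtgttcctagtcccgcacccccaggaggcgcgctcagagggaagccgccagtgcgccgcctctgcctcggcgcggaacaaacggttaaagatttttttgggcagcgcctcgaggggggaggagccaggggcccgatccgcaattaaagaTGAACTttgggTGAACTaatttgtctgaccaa
Stra8: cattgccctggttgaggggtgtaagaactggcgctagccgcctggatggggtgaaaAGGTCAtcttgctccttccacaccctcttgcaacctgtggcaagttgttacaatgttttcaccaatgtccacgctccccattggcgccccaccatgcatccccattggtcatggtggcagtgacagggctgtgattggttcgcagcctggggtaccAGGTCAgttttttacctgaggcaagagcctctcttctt
Aldh1a1: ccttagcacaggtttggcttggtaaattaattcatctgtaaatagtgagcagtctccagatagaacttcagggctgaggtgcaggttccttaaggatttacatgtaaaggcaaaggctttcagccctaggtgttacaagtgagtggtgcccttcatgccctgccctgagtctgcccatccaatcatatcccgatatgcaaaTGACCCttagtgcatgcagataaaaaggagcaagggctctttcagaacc

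Rarb held a direct repeat, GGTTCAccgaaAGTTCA, in which 5 bases part the hexamers, 53 to 37 bases before its start, and a further hexamer upstream. Cyp26a1 held such a repeat on the opposite strand, 32 to 16 bases before its start. Direct repeats with 5 bases between occurred in 29 of 32851 RefSeq promoter windows, or 0.0883%. In each window only the 250 bases before the listed start were searched, alike for every gene and for the stretches shown. Repeats with 2 bases between were in 0.174% of windows and with 1 base between in 0.164%. Of the 9 genes followed here 8 had a window, Rarb was the only one of these 8 with any of the 3 repeats, and 5 of the 8 had at least 1 hexamer. Stra8 held AGGTCA at 2 places, and Aldh1a1 a single hexamer in the stretch shown. A hexamer alone is common, in 38.6% of windows and, counting a gene once over its windows, in 41.8% of genes. A match describes the letters and does not show binding, and the absence of one covers this window only, and hexamers inside a repeat were counted as hexamers too.

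Of the 9 genes, Aldh1a1 and Dhrs3 fell in mSSC against SSC, which is to be read against 18.8% of all genes called in that comparison, 10.6% lower and 8.22% higher. In mSSC against iSSC, Aldh1a1 fell and Rarg rose, where 17.1% of all genes were called, 9.60% lower and 7.53% higher. None of the 9 was called in iSSC against SSC by limma, where 2.09% of all genes were called (1.87% lower, 0.225% higher). An unadjusted limma p under 0.05 was found there for 2 of the 9, Aldh1a1 and Dhrs3. The share of all genes under it was not counted, so this count cannot be called high or low. The arrays of the 2 kinds did not overlap for 5 of the 9 genes in mSSC against SSC, 3 in iSSC against SSC and 3 in mSSC against iSSC, against 58.6%, 50.0% and 62.8% of all genes. The median difference of the 9 genes was -0.84, -0.43 and -0.61 in these comparisons, beside 0.08, 0.10 and -0.01 over all genes. The 3 comparisons share arrays, so their values are not independent of each other.

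**Figure D1:**
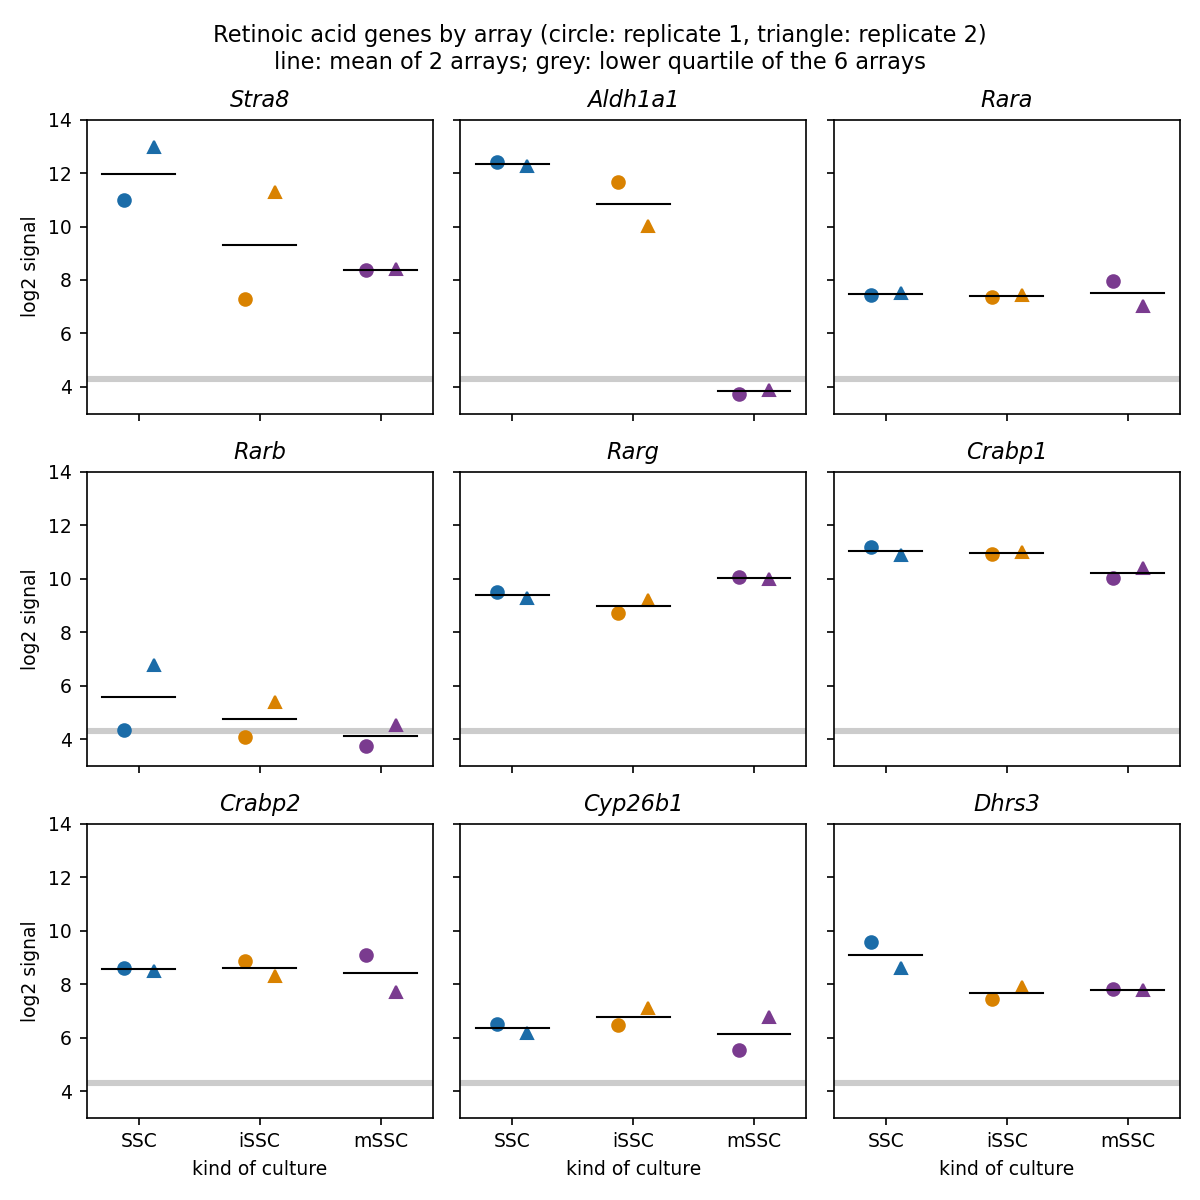
Log2 signal (vertical axis) of the 9 retinoic acid genes in SSC, iSSC and mSSC cultures (horizontal axis); circles are replicate 1, triangles replicate 2, lines the mean of 2 arrays, and the grey band the range of the arrays' lower quartiles (4.23 to 4.38). Aldh1a1 lies below the band in both mSSC arrays, and Stra8 and Rarb are spread widely within SSC and iSSC.

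**Figure D2:**
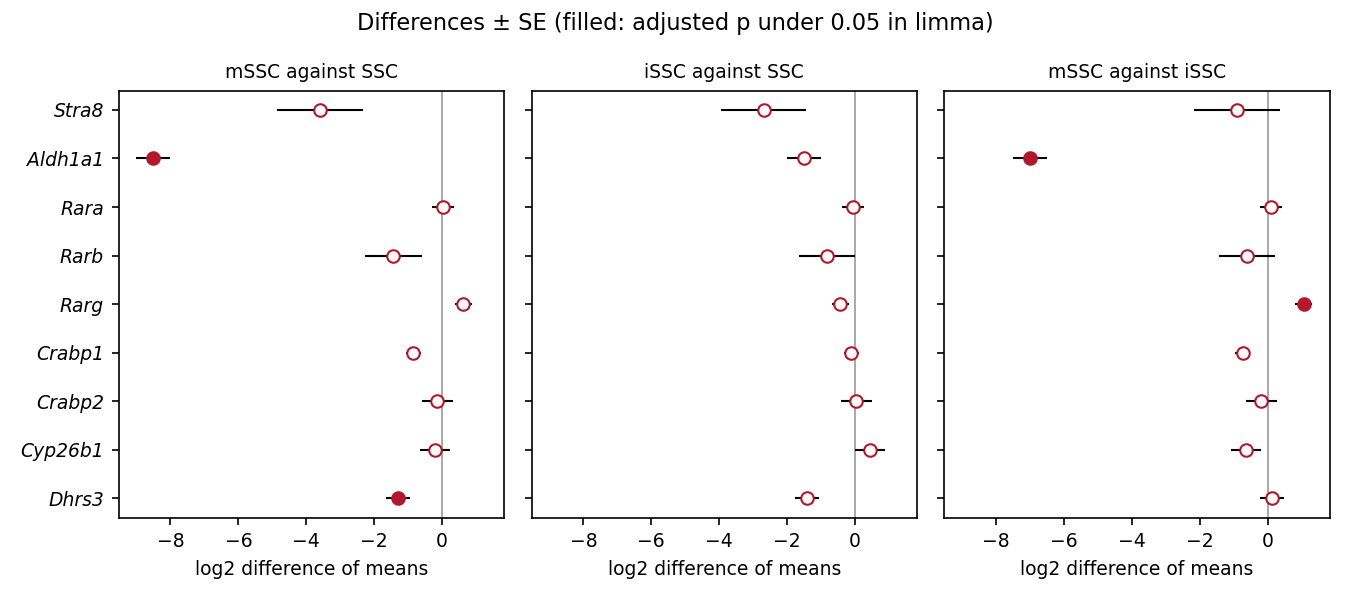
Log2 difference of group means ± SE (horizontal axis) for each gene (vertical axis) in the 3 comparisons; filled points have an adjusted p under 0.05 in limma. Aldh1a1 is called in both comparisons with mSSC, Dhrs3 against SSC and Rarg against iSSC, and none in iSSC against SSC.

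The retinaldehyde dehydrogenase gene Aldh1a1 showed the widest range of the 9, 8.67 between its highest and lowest array. SSC stood at 12.42 and 12.26, iSSC at 11.67 and 10.01, and mSSC at 3.75 and 3.90. All 4 SSC and iSSC arrays were far above both mSSC arrays, which were near background, and the kinds did not overlap. The difference was -8.51 ± 0.50 in mSSC against SSC (limma adjusted p = 6.2e-04) and -7.01 ± 0.50 in mSSC against iSSC (adjusted p = 0.00126). No fold is given because the mSSC level is near background. From SSC to iSSC it was -1.5 ± 0.50 (95% interval -2.72 to -0.29, adjusted p = 0.216), so the order SSC, iSSC, mSSC was called only in its last step.

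Among all 18194 genes, 3 had the profile nearest to that of Aldh1a1, by the root mean square distance between log2 profiles over the 6 arrays after centring each gene on its own mean. These were Lyz2 (distance 0.33), Lyz1 (0.55) and Ccl6 (0.76), against a median distance of 3.77 over all genes. Lyz2 and Lyz1 encode lysozymes and Ccl6 a chemokine, and macrophages make all of them. Lyz2 read 14.27 and 14.16 in SSC, 13.61 and 12.80 in iSSC, and 6.16 and 6.15 in mSSC. All 12 macrophage markers were lower in mSSC than in SSC by the test, and C1qb and Ptprc were near background in both mSSC arrays. The summed macrophage signal, as log2 of the sum of linear signals, was 15.84 and 15.25 in SSC, 14.23 and 13.44 in iSSC, and 9.46 and 10.39 in mSSC. Of 14 Sertoli cell markers 8 fell and 1 rose, Rhox5, in mSSC against SSC. Among them Sox9 was at 7.23 and 7.52 in SSC, 5.82 and 6.12 in iSSC, and 5.71 and 5.10 in mSSC. The summed Sertoli signal ran from 13.55 to 13.87 in SSC, 11.23 to 12.21 in iSSC and 13.10 to 13.27 in mSSC, where Rhox5 made up most of it at 12.82 and 13.07. The 5 measured Leydig cell markers had a median difference of -2.15 in mSSC against SSC, from -2.99 to 0.32, and 0 of them were called. Hsd17b3 was near background in all 6 arrays. The part of these cells in the Aldh1a1 difference was not tested, and in bulk RNA fewer cells of a type cannot be told apart from less RNA per cell.

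**Figure D3:**
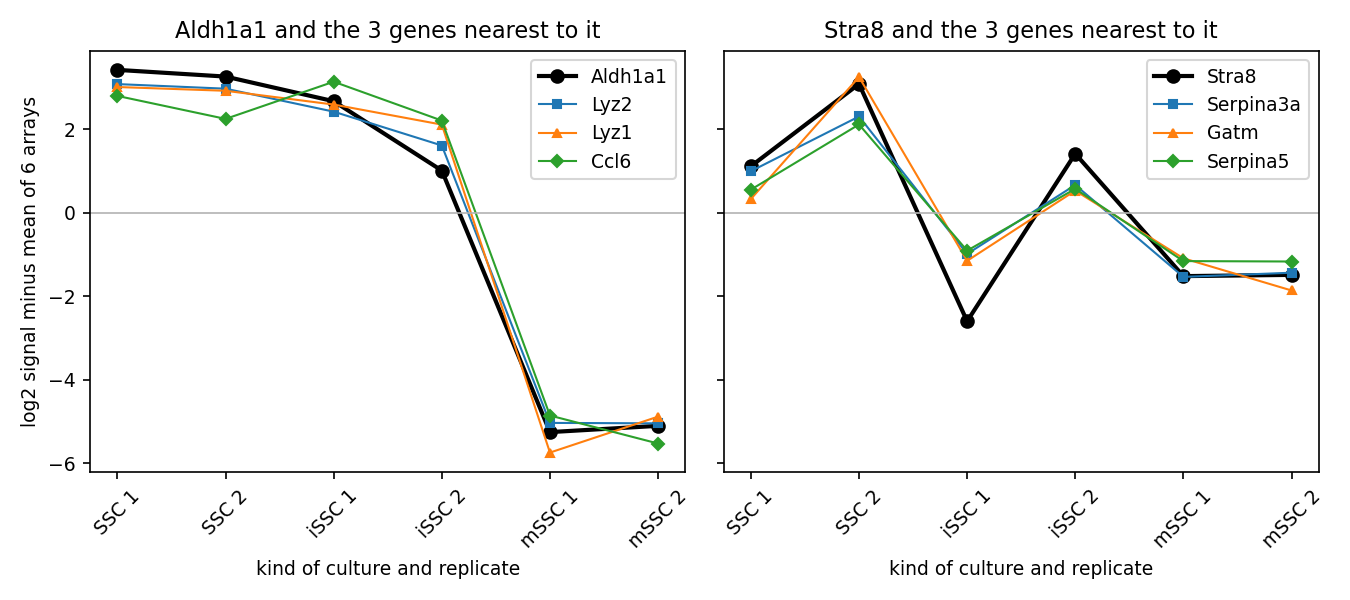
Log2 signal minus the mean of the 6 arrays (vertical axis) by array (horizontal axis), for Aldh1a1 with Lyz2, Lyz1 and Ccl6 and for Stra8 with Serpina3a, Gatm and Serpina5, the 3 genes nearest to each. The Aldh1a1 group drops in both mSSC arrays, and the Stra8 group is higher in replicate 2 than in replicate 1 of SSC and of iSSC.

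Other aldehyde dehydrogenases of the pathway did not share 1 pattern. Aldh1a2, a further retinoic acid-forming enzyme, read 9.58 and 8.13 in SSC, 8.06 and 7.36 in iSSC, and 6.5 and 6.78 in mSSC. It fell 4.65-fold in mSSC against SSC (-2.22 ± 0.50, adjusted p = 0.0276), although it was not called without SSC replicate 1 (-1.49, adjusted p = 0.0616), without mSSC replicate 1 (-2.08, adjusted p = 0.103), without mSSC replicate 2 (-2.36, adjusted p = 0.0715) or without either iSSC array (adjusted p = 0.051). Aldh1a3 was at 4.96 and 5.08 in SSC, 6.29 and 6.02 in iSSC, and 5.09 and 5.18 in mSSC. It was lower in mSSC than in iSSC by 2.03-fold (-1.02 ± 0.21, adjusted p = 0.0226), a call that was lost without either iSSC array (-0.88 and -1.16, adjusted p = 0.185 and 0.10) and without either mSSC array (-0.97 and -1.06, adjusted p = 0.0839 and 0.0634), and with probe sets averaged (-0.45, adjusted p = 0.241). Set against SSC, iSSC was at 1.13 ± 0.21 (adjusted p = 0.0564). Aldh1a7 is a near copy of Aldh1a1, and whether its probe set also binds Aldh1a1 RNA was not tested. It was highest in iSSC, at 8.23 and 9.67, against 7.76 and 6.90 in SSC and 4.30 and 4.02, near background, in mSSC. It fell by 4.78 in mSSC against iSSC (SE 0.51, adjusted p = 0.00337) and by 3.16 in mSSC against SSC (SE 0.51, adjusted p = 0.0105), the latter with -2.73 and adjusted p = 0.0511 without SSC replicate 1.

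Dhrs3, the retinaldehyde reductase that lowers retinoic acid formation, was highest in SSC. Its values were 9.56 and 8.60 in SSC, 7.45 and 7.88 in iSSC, and 7.82 and 7.77 in mSSC. Both SSC arrays lay above all other arrays, while iSSC and mSSC overlapped. The difference was 2.44-fold in mSSC against SSC (-1.29 ± 0.35, limma adjusted p = 0.0498), at the edge of the threshold. It was called under 3 of 15 alternatives, with adjusted p from 0.0167 to 0.142. Among single arrays it held only without SSC replicate 2 (-1.77), and was lost without SSC replicate 1 (-0.81, adjusted p = 0.122), without either iSSC array (adjusted p = 0.0906) and without mSSC replicate 1 or 2 (adjusted p = 0.135 and 0.142). The iSSC against SSC difference was -1.42 ± 0.35 (adjusted p = 0.119), and was called without SSC replicate 2 (-1.89, adjusted p = 0.0467). The profiles nearest to Dhrs3 were those of 4930594M22Rik (distance 0.12), the hexokinase gene Hk3 (0.14) and Srgap1 (0.14). Hk3 read 8.60 and 7.61 in SSC, 6.76 and 6.85 in iSSC, and 6.77 and 6.63 in mSSC. As for Aldh1a1, the macrophage and fibroblast markers were also highest in SSC, with SSC replicate 1 the higher of its kind, and their part in the Dhrs3 difference was not tested.

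The carriers Crabp1 and Crabp2, small cytoplasmic proteins that bind retinoic acid, gave no call. Crabp1 read 11.20 and 10.90 in SSC, 10.92 and 10.98 in iSSC, and 10.03 and 10.40 in mSSC. Both mSSC arrays lay below the other 4, by -0.84 ± 0.23 against SSC (adjusted p = 0.0531, 95% interval -1.41 to -0.28) and -0.74 ± 0.23 against iSSC (adjusted p = 0.0819, interval -1.30 to -0.17). With probe sets of other genes averaged, which changes the genes it is adjusted with but not its own value, Crabp1 passed against SSC (adjusted p = 0.0452). The iSSC minus SSC difference was -0.10 ± 0.23, with an interval from -0.67 to 0.46.

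Crabp2, which hands retinoic acid to the receptors, was at 8.61 and 8.49 in SSC, 8.88 and 8.31 in iSSC, and 9.09 and 7.72 in mSSC. The 2 mSSC arrays held both its highest and its lowest value, and all kinds overlapped. Of its sum of squares over the 6 arrays 96.7% lay within kinds. The difference in mSSC against SSC was -0.14 ± 0.46, with a 95% interval from -1.25 to 0.96, so the data leave room for a change in either direction.

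Among the receptors, only Rarg was called, and only against iSSC. Rarg, the receptor linked to spermatogonial differentiation, was at 9.51 and 9.28 in SSC, 8.71 and 9.21 in iSSC, and 10.05 and 9.99 in mSSC. On this probe set its order was iSSC, SSC, mSSC with no overlap between kinds, though SSC and iSSC came close (9.28 and 9.21). It rose 2.09-fold in mSSC against iSSC (1.06 ± 0.25, adjusted p = 0.0326) and was at 0.63 ± 0.25 against SSC (adjusted p = 0.133). A second probe set of Rarg read 7.08 and 7.65, 6.99 and 7.39, and 8.20 and 8.55, with a like difference of 1.19 ± 0.29 from iSSC (adjusted p = 0.054) and of 1.01 ± 0.29 from SSC (adjusted p = 0.0794). On that probe set SSC and iSSC overlapped, and only mSSC stood apart. The call against iSSC was made under 9 of 16 alternatives and lost without either iSSC array (0.81 and 1.32, adjusted p = 0.226 and 0.0814) and without either mSSC array (1.03 and 1.09, adjusted p = 0.109 and 0.0912).

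Rara, the receptor that Sertoli cells use, varied little between kinds, at 7.45 and 7.50 in SSC, 7.36 and 7.45 in iSSC, and 7.98 and 7.03 in mSSC. The mSSC arrays enclosed all other values, and 97.9% of the sum of squares lay within kinds. The mSSC minus SSC difference was 0.03 ± 0.33 with a 95% interval from -0.76 to 0.83, and the iSSC minus SSC difference -0.06 ± 0.33 with an interval from -0.86 to 0.73, both with signs that flipped under other settings. Retinoid X receptors, the partners, gave no call either on the probe set that stood for each gene. Rxra stood at 0.41 ± 0.23 in mSSC against SSC (adjusted p = 0.268), but its probe sets disagreed. A second one read 9.01 and 8.16 in SSC, 8.39 and 8.61 in iSSC, and 6.92 and 6.85 in mSSC, a difference of -1.70 from SSC and -1.61 from iSSC, so no direction is given for Rxra. In mSSC against SSC Rxrb stood at -0.10 ± 0.24 (adjusted p = 0.818) and Rxrg at 0.25 ± 0.25 (adjusted p = 0.549). Rxrg was at 0.94 ± 0.25 in iSSC against SSC (adjusted p = 0.139).

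Rarb, a receptor gene that retinoic acid itself switches on through the repeat printed above, read 4.33 and 6.78 in SSC, 4.09 and 5.38 in iSSC, and 3.74 and 4.51 in mSSC. In each kind 1 of the 2 arrays was near background, and all kinds overlapped. The higher array was replicate 2 in every kind. Its means were 5.56, 4.73 and 4.12, and no difference passed, the largest being -1.43 ± 0.83 in mSSC against SSC (adjusted p = 0.284, 95% interval -3.42 to 0.56). The spread of Rarb within kinds, a pooled SD of 1.17, exceeded that of 99.0% of genes.

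Stra8, the gate to meiosis and the usual readout of retinoic acid in germ cells, read 11 and 12.97 in SSC, 7.29 and 11.30 in iSSC, and 8.37 and 8.40 in mSSC. Both SSC arrays were above both mSSC arrays, whereas the 2 iSSC arrays lay 4.01 apart, replicate 1 as the lowest array of all 6 and replicate 2 within the SSC range. The difference was 12.1-fold in mSSC against SSC (-3.60 ± 1.26, 95% interval -6.65 to -0.55) and did not pass (adjusted p = 0.101). A fit on the 4 SSC and mSSC arrays alone leaves out the spread between the iSSC arrays. There the same difference was called (SE 0.64, limma adjusted p = 0.0284). Leaving out either iSSC array gave this same fit, since a lone iSSC array adds nothing to the spread. These were the 3 of 15 alternatives with a call, so they amount to 1 check. It was not called without SSC replicate 1 (-4.59, adjusted p = 0.124), SSC replicate 2 (-2.61, adjusted p = 0.319), mSSC replicate 1 (-3.58, adjusted p = 0.243) or mSSC replicate 2 (-3.62, adjusted p = 0.221). Between SSC and iSSC it was -2.69 ± 1.26 (adjusted p = 0.356), from -4.69 without iSSC replicate 2 to -0.68 without iSSC replicate 1, and in mSSC against iSSC -0.91 ± 1.26 (adjusted p = 0.707), which became 1.09 without iSSC replicate 2. The pooled SD of Stra8 within kinds, 1.82, exceeded that of 99.9% of genes, whose median was 0.26.

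The genes nearest to Stra8 in profile were Serpina3a (distance 0.79), Gatm (0.80) and Serpina5 (0.92), beside a median of 2.07 over all genes. Gatm, an enzyme of creatine synthesis, read 7.18 and 10.10 in SSC, 5.70 and 7.38 in iSSC, and 5.76 and 4.99 in mSSC. Nearest to Rarb were Ccnj (0.29), Edil3 (0.36) and Zeb2 (0.39), beside a median of 1.13. Ccnj, a cyclin-like gene, read 4.89 and 6.88 in SSC, 5.07 and 6.24 in iSSC, and 4.33 and 4.97 in mSSC.

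Stra8 and Rarb parted the 2 arrays of SSC and the 2 arrays of iSSC the same way. Replicate 2 exceeded replicate 1 by 1.97 in SSC and 4.01 in iSSC for Stra8, and by 2.45 and 1.29 for Rarb, while the mSSC arrays differed by 0.03 and 0.77. Of 18194 genes 33, or 0.181%, were higher in replicate 2 by more than 1 in both SSC and iSSC, and as many, 33, were higher in replicate 1 by the same rule. Those higher in replicate 2 included, beside Stra8 and Rarb, the retinoic acid hydroxylase Cyp26a1 and Kit, the receptor of differentiating spermatogonia. Cyp26a1 read 7.26 and 9.24 in SSC, 6.19 and 9.05 in iSSC, and 6.16 and 6.12 in mSSC, with gaps of 1.98, 2.86 and -0.04. Its difference in mSSC against SSC was -2.12 ± 0.99 (adjusted p = 0.195). Kit read 7.18 and 10.31, 7.08 and 8.66, and 9.66 and 10.28, with gaps of 3.13, 1.58 and 0.62, and its second probe set had gaps of 3.19, 1.31 and 1.18. Thus 2 of the 9 genes and 2 of 72 other measured genes of the pathway were among the 33. The rest of the 33 were on none of the pathway lists, so the shared gap was not particular to retinoic acid genes. Among them were Cldn11 (gaps of 3.24 in SSC and 1.27 in iSSC) and Aard (2.02 and 2.08). Gatm (2.92 and 1.68) and Serpina5 (1.57 and 1.48), named above as near to Stra8 in profile, were there too. The threshold of 1 and this tally were chosen after the values were seen, and the gaps have no test.

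**Figure D4:**
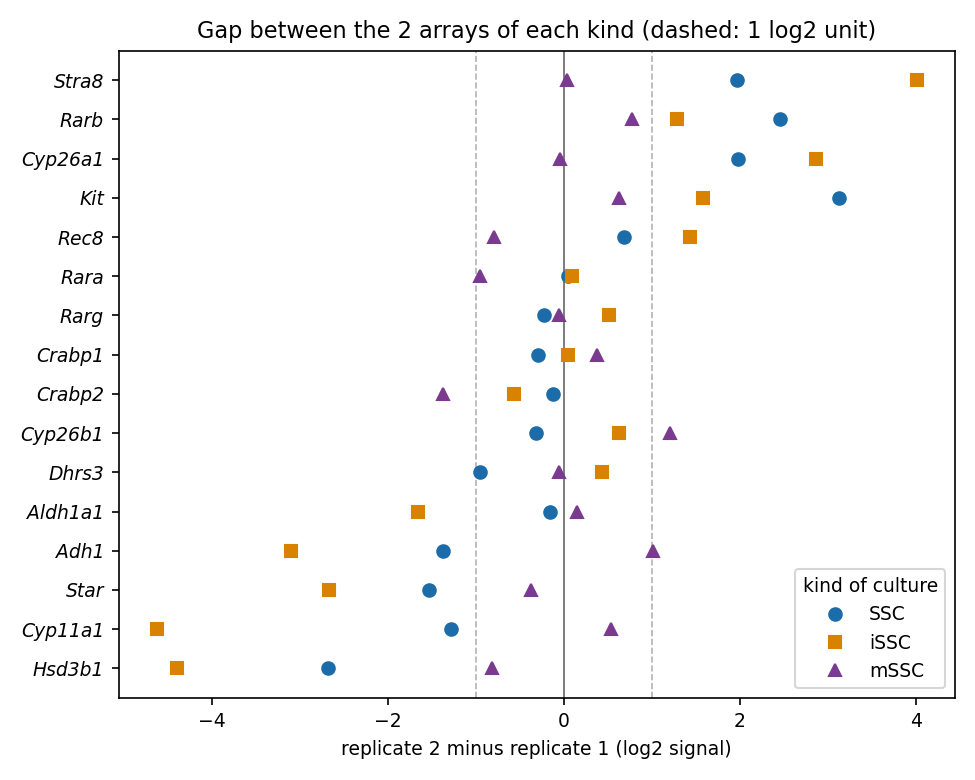
Replicate 2 minus replicate 1 in log2 signal (horizontal axis) for SSC, iSSC and mSSC, by gene (vertical axis), with dashed lines at 1 unit. Stra8, Rarb, Cyp26a1 and Kit lie above 1 in SSC and iSSC, and Adh1, Star, Cyp11a1 and Hsd3b1 below -1.

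Of 11 measured genes with a direct repeat of 5-base spacing in their promoter window, Rarb and Cyp26a1 were the 2 with this shared gap, and the median gaps of the 11 were -0.24 in SSC and -0.10 in iSSC. Rec8, a meiotic cohesin subunit that retinoic acid induces, had gaps of 0.68, 1.43 and -0.80. Aldh1a1 had gaps of -0.16 in SSC and -1.66 in iSSC, the latter opposite in sign to those of Stra8 and Rarb. The remaining 6 genes of the 9 did not split by more than 1 in these kinds, as Rara, Rarg, Crabp1, Crabp2, Cyp26b1 and Dhrs3 had gaps between -0.96 and 0.62 in SSC and iSSC. Of 5 measured markers of Leydig cells, the steroid-making cells between the tubules, 3 were among the 33 genes higher in replicate 1. Replicate 2 minus replicate 1 was -1.53 in SSC and -2.67 in iSSC for Star, -1.28 and -4.63 for Cyp11a1, and -2.68 and -4.40 for Hsd3b1. For Adh1, an alcohol dehydrogenase, it was -1.37 and -3.10. In mSSC the gaps of these 4 genes were between -0.82 and 1.01. Of the Leydig markers not among the 33, Cyp17a1 read 6.17 and 5.70 in SSC and 6.03 and 5.94 in iSSC. Hsd17b3 was near background in all 6 arrays. Genes on no marker list were also among the 33 higher in replicate 1, some with wider gaps. Examples are Chil3 (-8.65 in SSC and -2.21 in iSSC), Marco (-3.85 and -2.03), Cd5l (-4.02 and -1.39) and Arg1 (-2.89 and -1.66). Median gaps of the macrophage markers were -0.67 in SSC and -0.80 in iSSC, those of fibroblast markers -0.79 and 0.42, and those of undifferentiated spermatogonia 0.04 and 0.09. For the 14 Sertoli cell markers the median level was 7.36 and 7.43 in SSC replicates 1 and 2, and 6.26 and 6.31 in those of iSSC. Their summed signal was 13.55 and 13.87 in SSC, and 12.21 and 11.23 in iSSC. The part of these cells, or of passage, in the Stra8 and Rarb gaps was not tested. The labels do not say that a replicate number links arrays of different kinds.

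Cyp26b1, the retinoic acid hydroxylase that keeps fetal male germ cells out of meiosis, did not follow Cyp26a1. Its values were 6.51 and 6.19 in SSC, 6.48 and 7.10 in iSSC, and 5.54 and 6.76 in mSSC, and all kinds overlapped. The differences were -0.20 ± 0.44 in mSSC against SSC (adjusted p = 0.791, 95% interval -1.25 to 0.85), 0.44 ± 0.44 in iSSC against SSC (adjusted p = 0.684) and -0.64 ± 0.44 in mSSC against iSSC (adjusted p = 0.395).

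Beyond the 9 genes, 72 of 83 further listed genes of the pathway were measured. In mSSC against SSC 19 fell, 6 rose and 47 did not pass, with a median of -0.22. Over all genes 10.6% were called lower and 8.22% higher in that comparison. Counts of the single lists below are to be read against these shares too. In mSSC against iSSC 16 fell and 5 rose, with a median of -0.24, beside 9.60% of all genes lower and 7.53% higher. In iSSC against SSC 0 were called by limma (median 0.03), beside 2.09% of all genes. There 21 had an unadjusted limma p under 0.05. The share of all genes under it was not counted, so 21 cannot be called many or few. The count of 21 calls against iSSC was lower without either iSSC array, as was the count over all genes. The lists were drawn up with earlier results of these data known, so the counts are a description.

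**Figure D5:**
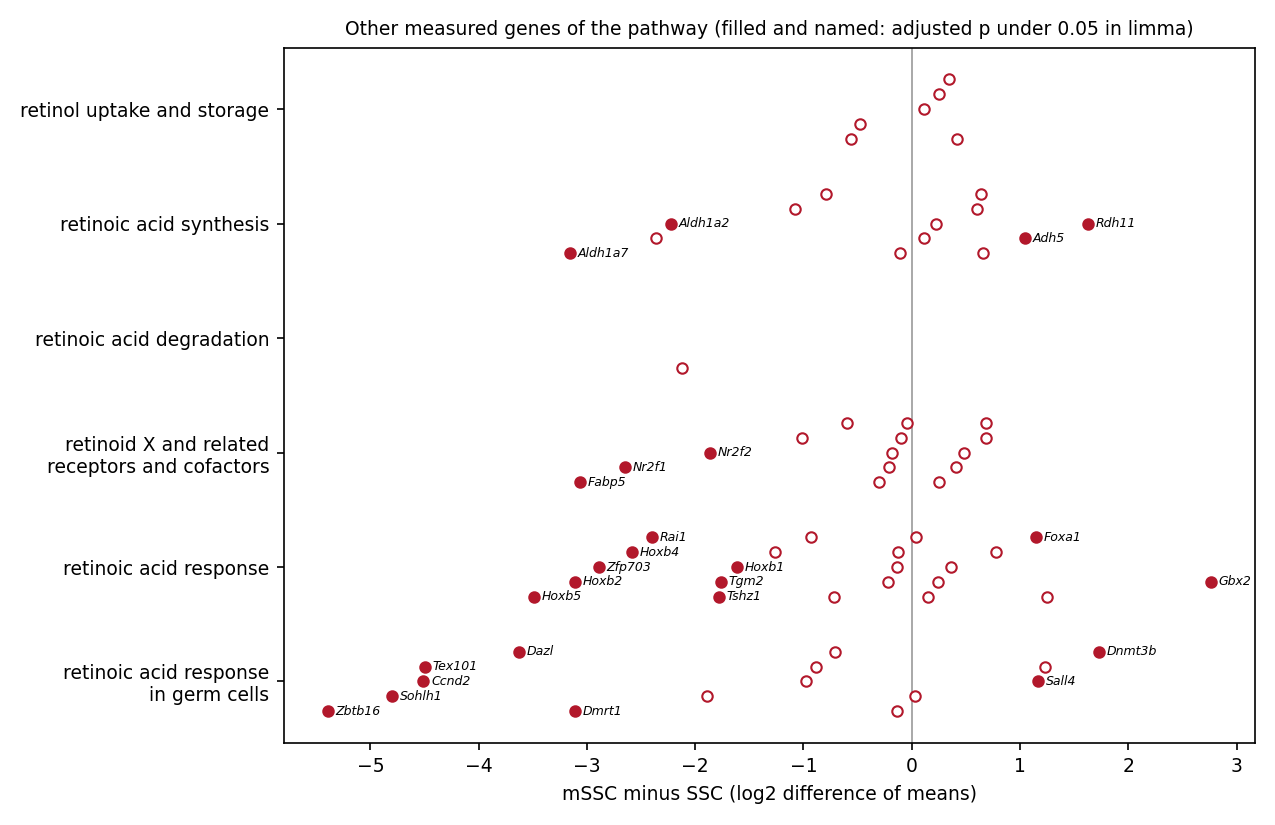
Log2 difference of means in mSSC against SSC (horizontal axis) for 72 measured genes of the pathway in 6 lists (vertical axis, where height within a list only separates points); filled, named points have an adjusted p under 0.05 in limma. Hox genes of the b cluster and spermatogonial genes lie on the lower side, Gbx2 and Dnmt3b on the higher.

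Of 6 uptake and storage genes 0 were called by limma in mSSC against SSC, and 0 had an unadjusted p under 0.05. Stra6, the retinol transporter, was at -0.56 ± 0.37 (adjusted p = 0.35), and Lrat, which stores retinol as esters, was near background in all 6 arrays. Dgat1, which can also esterify retinol, was lower in mSSC than in iSSC by -0.75 ± 0.20 (adjusted p = 0.0499), a call kept under 3 of 15 alternatives and lost without either iSSC array (adjusted p = 0.286 and 0.214) or either mSSC array (0.101 and 0.163). In the retinol-oxidising step Rdh10 was at -1.08 ± 0.31 in mSSC against SSC (adjusted p = 0.0595). Rdh11, another retinol dehydrogenase, rose 3.10-fold (1.63 ± 0.36, adjusted p = 0.0259), and Adh5 rose 2.07-fold (1.05 ± 0.20, adjusted p = 0.0158). The Rdh11 call was lost without SSC replicate 1 (1.13, adjusted p = 0.0556), either mSSC array (0.0979 and 0.0682) or either iSSC array (0.0575), and the Adh5 call without mSSC replicate 1 (adjusted p = 0.0624) or either iSSC array (0.0533). With probe sets averaged Adh5 was at 0.66 (adjusted p = 0.0599).

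In the receptor and cofactor list 3 of 15 fell in mSSC against SSC and none rose. Fabp5, which carries retinoic acid to another nuclear receptor and is also abundant in macrophages, fell 8.32-fold (-3.06 ± 0.60, adjusted p = 0.019), and was not called without SSC replicate 1 (adjusted p = 0.0845) or SSC replicate 2 (0.0525). The value itself ran from -2.07 without mSSC replicate 2 to -4.05 without mSSC replicate 1. Fabp5 read 13.80 and 13.50 in SSC, 12.70 and 12.28 in iSSC, and 11.58 and 9.60 in mSSC. The orphan receptors Nr2f1 and Nr2f2, which retinoic acid induces, changed by -2.65 ± 0.48 (adjusted p = 0.0151) and -1.86 ± 0.38 (adjusted p = 0.0212). Nr2f1 was near background in both mSSC arrays, and 5 of 6 probe sets of Nr2f2 had this sign. Nr2f1 lost its call against SSC without SSC replicate 1 (adjusted p = 0.0573), SSC replicate 2 (0.0529) or mSSC replicate 1 (0.0627), and Nr2f2 without SSC replicate 1 (0.0539), mSSC replicate 1 (0.0588) or mSSC replicate 2 (0.0793). With probe sets averaged Nr2f2 was at -0.86 (adjusted p = 0.0426). Against iSSC the coactivator Ncoa1 rose by 1.78 ± 0.30 (adjusted p = 0.0126) and the corepressor Nrip1 by 1.90 ± 0.44 (adjusted p = 0.0323). Without iSSC replicate 1 or 2 Ncoa1 was not called (adjusted p = 0.0658 and 0.0949), nor was Nrip1 without iSSC replicate 1 (1.27, adjusted p = 0.145) or either mSSC array (0.0727 and 0.119). With probe sets averaged Nrip1 was at 1.02 (adjusted p = 0.155), and with its probe set of largest variance at 1.14 (adjusted p = 0.504). Both were lowest in iSSC, where Nrip1 read 5.42 and 6.67 against 8.39 and 7.87 in SSC and 7.73 and 8.16 in mSSC.

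Of 22 measured retinoic acid response genes 8 fell and 2 rose in mSSC against SSC, with a median of -0.47. The b-cluster genes Hoxb1, Hoxb2, Hoxb4 and Hoxb5, patterning factors of the embryo, were among the lower ones and were called in both comparisons with mSSC. Hoxb5 read 7.53 and 7.69 in SSC, 8.58 and 8.56 in iSSC, and 4.17 and 4.07 in mSSC, a difference of -3.49 ± 0.20 from SSC (adjusted p = 5.5e-04) to a level near background. Hoxb2 read 9.09 and 8.71, 9.24 and 9.86, and 5.65 and 5.93, and fell 8.65-fold against SSC (-3.11 ± 0.29, adjusted p = 0.00202). None of these 4 was among the 33 genes that parted the replicates as Stra8 and Rarb did. Hoxb9, of the same cluster and named because it was among the 33, read 7.46 and 8.72 in SSC, 7.10 and 8.67 in iSSC, and 5.07 and 5.14 in mSSC. The differences of the first 4 against SSC were called under each alternative that held them.

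Other response genes were mixed. Rai1 changed by -2.40 ± 0.29, Tshz1 by -1.78 ± 0.35 and Tgm2, a transglutaminase of macrophages and other cells, by -1.76 ± 0.27 (5 of 6 probe sets with this sign). Tshz1 was at -2.99 (adjusted p = 0.022) and Tgm2 at -1.72 (adjusted p = 0.108) on the probe set of largest variance. Zfp703 was at -2.89 ± 0.35, but 2 of its 3 probe sets had the other sign and their average was at -0.77 (adjusted p = 0.0542). Gbx2, a homeobox gene also expressed by embryonic stem cells, rose by 2.76 ± 0.58 (adjusted p = 0.0228), and Foxa1, near background in both SSC arrays, by 1.15 ± 0.22 (adjusted p = 0.0162). The Gbx2 value was 1.82 without mSSC replicate 2 and 3.69 without mSSC replicate 1. The Gbx2 call was lost without SSC replicate 1 or 2 (adjusted p = 0.099 and 0.0537) or either iSSC array (0.0503), that of Foxa1 without mSSC replicate 2 (0.0616) and that of Tshz1 without SSC replicate 1 (0.0601) or mSSC replicate 1 (0.0762). In the germ cell response list 6 of 15 fell and 2 rose. Sohlh1 (-4.80 ± 0.42), Ccnd2 (-4.51 ± 0.42), Tex101 (-4.50 ± 0.35), Dazl (-3.63 ± 0.36), Dmrt1 (-3.11 ± 0.34) and Zbtb16 (-5.39 ± 0.55) were the lower ones, and the methyltransferase gene Dnmt3b (1.73 ± 0.28) and Sall4 (1.17 ± 0.25) the higher. Sall4 was not called without either SSC array (adjusted p = 0.0597 and 0.0689), either iSSC array (0.0546) or mSSC replicate 2 (0.0938). Zbtb16, Dazl and Sall4 among them are also markers of undifferentiated spermatogonia here, so the list does not stand for the retinoic acid response alone. It also does not part genes that retinoic acid raises from genes it lowers, so its counts do not measure a response. Rec8 was at -1.89 ± 0.53 in mSSC against SSC (adjusted p = 0.0547).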

How the data were processed

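RNA (10 µg per sample, extracted with Trizol and amplified with NuGEN kits, per the labels) from 6 samples was measured on Affymetrix arrays. The deposited log2 values were made by the authors with RMA, per the submitters' processing notes. RMA corrects background, equalises the arrays' distributions and gives a value per probe set, which can shrink small differences; no version of it is given in the sources. Of 45101 probe sets 34958 had 1 gene symbol in the platform table, 932 several and 9211 none, and 0 columns were left out. The probe set with the highest mean over the 6 arrays stood for a gene. Stra8, Aldh1a1, Rara, Rarb, Crabp1, Crabp2, Cyp26b1 and Dhrs3 have 1 probe set each and Rarg has 2.

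The test was limma (3.58.1, R 4.3.3): 1 mean per kind fitted on the 6 arrays together, empirical Bayes variances, 2-sided p-values adjusted over 18194 genes, with no filter. It was tested on simulated data with independent noise. The changes added there were larger than the called differences of Dhrs3 and Rarg, so that test does not bear on calls of such size. Intervals are 95% intervals of the moderated fit. The members, lists and tests were chosen with earlier results of these data known. The text names all 9 members, every listed gene of the pathway that was called, a few fixed relatives, and the 3 nearest profiles of members that span more than 2 log2 units. Alternatives were a replicate block, fits on 4 arrays, another variance model, other scalings, other uses of probe sets, a filter on dim genes, a minimum change of 1.2-fold and leaving out each array. Where an array is left out, its group's lone array is assumed to vary like the others. Leaving out an array of the kind outside a comparison gives the fit on 4 arrays again. Such alternatives are not separate checks, also where the text counts them.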

Additional observations from a re-analysis of the deposited data

How the results depend on the processing

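Over the alternatives tried, Aldh1a1 was called in both comparisons with mSSC each time, from -8.62 to -8.44 against SSC and from -7.84 to -6.18 against iSSC. In mSSC against SSC 2 of the 9 genes were called, and 1 with a replicate block, with a variance trend and robust moderation, with quantile normalization again, with each array centred on its median, with the probe set of largest variance and with a minimum change of 1.2-fold, as Dhrs3 was lost. With probe sets averaged 3 were called, Crabp1 being added, and the fit on 4 arrays called 2, Aldh1a1 and Stra8, with Dhrs3 lost. Leaving out single arrays gave 1 to 2. In mSSC against iSSC 2 were called, 1 with the probe set of largest variance and 1 with the minimum change, as Rarg was lost, and 1 to 2 without single arrays. In iSSC against SSC the count was 0, or 0 to 1 without single arrays. Of the other pathway genes 25 were called in mSSC against SSC (18 to 22 without single arrays) and 21 in mSSC against iSSC (12 without iSSC replicate 1, 13 without iSSC replicate 2, 24 without either SSC array). In iSSC against SSC 0 were called, 1 in the fit on 4 arrays and 1 with dim genes left out, and 0 to 1 without single arrays. Over all genes the calls were 3425 in mSSC against SSC (1966 to 3467), 381 in iSSC against SSC (0 to 503) and 3117 in mSSC against iSSC (604 to 3724). The cause of these shifts was not tested.

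Of 405 recomputed differences of the 9 genes 365 kept direction and side of the threshold. Of the others 19 lost a call, 5 gained one and 16 changed sign, none of the last a called difference. For many of the 405 the direction was fixed beforehand. A replicate block, another variance model, a filter on dim genes and a minimum change leave each difference as it was. So does a fit on the compared arrays alone, which leaving out an array of the other kind repeats. Other uses of probe sets can move only Rarg among the 9 genes. The 405 are therefore not separate checks, and the share that stayed the same does not measure stability. With quantile normalization Crabp2 in mSSC against SSC was 0.05 and Rara in iSSC against SSC 0.02, which was 0.01 with centring. Without single arrays the ranges that crossed 0 were, in mSSC against SSC, -0.44 to 0.51 for Rara, -0.83 to 0.54 for Crabp2 and -0.81 to 0.41 for Cyp26b1. In iSSC against SSC they were -2.05 to 0.40 for Rarb, -0.25 to 0.05 for Crabp1 and -0.24 to 0.33 for Crabp2. In mSSC against iSSC they were -2.92 to 1.09 for Stra8, -0.38 to 0.57 for Rara, -1.25 to 0.04 for Rarb, -0.87 to 0.50 for Crabp2 and -0.09 to 0.34 for Dhrs3.

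The replicate numbers are not stated to pair arrays. Replicate gaps over all genes correlated across genes at 0.12 between SSC and iSSC, 0.07 between SSC and mSSC and 0.17 between iSSC and mSSC. The replicate block left 1 of the 9 genes called in mSSC against SSC, 2 in mSSC against iSSC and 0 in iSSC against SSC, where calls over all genes went from 381 to 148. With it Dhrs3 had adjusted p = 0.07 in mSSC against SSC.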
